A study of Mus musculus with 10 samples.

Results

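The genes followed here, 9 in all, mark monocytes and macrophages, and were measured in sorted blood progenitors of mice: Csf1r, Ccr2, Cx3cr1, Fcgr1, Cd14, Adgre1, Ly6c2, Lyz2 and F13a1. They were chosen by name as surface receptors and effectors of these cells, and all 9 were found, by Ensembl ID, among the 38086 gene IDs that the GMP and LSK count tables share. RNA was sequenced from 10 libraries of C57BL/6 mice aged 12 months, in 4 groups. GMP KO (3 libraries) and LSK KO (3 libraries) came from Dnmt3af/f Mx1-Cre+ mice, and GMP CTRL (2 libraries) and LSK CTRL (2 libraries) from Dnmt3af/f Mx1-Cre- mice. Dnmt3a encodes a DNA methyltransferase that sets new methylation. All groups carry the floxed alleles, and the protocol of every sample lists 5 intraperitoneal injections of poly(I:C), a double-stranded RNA mimic that induces interferon and, through the Mx1 promoter, Cre. CTRL mice had no Cre, so the effects of Cre and of the deletion cannot be told apart. GMP, the granulocyte-macrophage progenitors, were sorted as Lin- Sca1- cKit+ CD34+ FcgR+ cells and LSK, which hold the stem cells and multipotent progenitors, as Lin- Sca1+ cKit+ cells. Libraries are named by genotype and title number, and the values of a group are listed in 1 order: GMP KO-178, KO-179, KO-352; GMP CTRL-346, CTRL-350; LSK KO-1327, KO-1333, KO-1334; LSK CTRL-1326, CTRL-1330.

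Monocytes arise in the bone marrow from GMP and their monocyte-committed offspring under control of the CSF-1 receptor, and leave it through CCR2. Classical monocytes are high in Ly6C and CCR2 and can become macrophages in inflamed tissue, whereas patrolling monocytes are low in both, high in CX3CR1 and stay along the vessel wall. CD64, CD14, F4/80, lysozyme M and factor XIII A are proteins of more mature monocytes and macrophages, some of them shared with neutrophils.

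The stretches of DNA before a RefSeq start of 4 of these genes are shown because their GMP KO and GMP CTRL libraries did not overlap on the common scale of the levels below. The libraries of Adgre1 did not overlap on that scale either, but no such sequence was available for it. The stretches shown are RefSeq sequences of build GRCm38.p6, each the 250 bases before an annotated start, 5′ to 3′ on the gene's strand, and capitals mark matches to short motifs. Fcgr1 lies at chr3:96293970-96294219, minus strand; F13a1 at chr13:37050245-37050494, minus strand, the first of its 2 windows; Ccr2 at chr9:124101933-124102182, plus strand; and Cx3cr1 at chr9:120068297-120068546, minus strand. The Cx3cr1 window lies inside the longer span that GENCODE gives the gene, and the Ccr2 window almost wholly so, since that span begins at base 124101950.
Fcgr1: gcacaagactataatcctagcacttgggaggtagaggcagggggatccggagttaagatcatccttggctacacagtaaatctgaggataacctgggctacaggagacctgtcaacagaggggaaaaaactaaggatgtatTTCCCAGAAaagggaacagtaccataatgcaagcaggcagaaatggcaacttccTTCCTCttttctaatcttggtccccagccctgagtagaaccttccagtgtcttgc
F13a1: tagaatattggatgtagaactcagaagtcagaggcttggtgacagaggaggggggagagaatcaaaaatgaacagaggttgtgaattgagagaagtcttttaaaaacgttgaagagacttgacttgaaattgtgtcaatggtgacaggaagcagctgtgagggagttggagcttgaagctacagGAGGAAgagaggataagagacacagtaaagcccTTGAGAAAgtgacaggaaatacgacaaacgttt
Ccr2: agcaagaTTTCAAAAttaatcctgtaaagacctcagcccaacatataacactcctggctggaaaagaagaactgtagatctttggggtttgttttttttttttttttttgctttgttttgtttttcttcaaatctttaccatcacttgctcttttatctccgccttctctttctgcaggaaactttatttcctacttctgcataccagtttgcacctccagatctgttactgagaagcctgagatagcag
Cx3cr1: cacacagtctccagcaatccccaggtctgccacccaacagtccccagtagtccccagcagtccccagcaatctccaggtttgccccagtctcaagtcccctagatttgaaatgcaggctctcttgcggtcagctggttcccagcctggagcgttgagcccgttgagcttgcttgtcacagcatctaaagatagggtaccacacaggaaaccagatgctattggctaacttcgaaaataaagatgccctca

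Both strands were searched for the core motif of PU.1, the lineage factor of macrophages (GAGGAA or TTCCTC), a C/EBP motif (TTNNGNAA or TTNCNNAA), the interferon-gamma activated site (GAS, TTCNNNGAA), TATAAA and CG pairs, the sites that DNA methyltransferases modify. The Fcgr1 window held a GAS match 109 bases and a PU.1 core 55 bases upstream of the start, which do not overlap each other. The F13a1 window held a PU.1 core at 66 bases and a C/EBP match at 33 bases, the Ccr2 window a C/EBP match at 243 bases, and the Cx3cr1 window none of the 4 motifs. The second F13a1 window (chr13:37049214-37049463, minus strand), inside the gene, held none of the 4 motifs and 4 CG pairs. Of 32851 RefSeq windows of the same length, 23.3% held the PU.1 core, 36.8% the C/EBP motif, 7.02% the GAS motif and 12.4% TATAAA. CG pairs were few: 1 in Fcgr1, 1 in Ccr2, 3 in the first F13a1 window and 4 in Cx3cr1, against a median of 6 over all windows. Ly6c2 and Lyz2, whose GMP libraries overlapped between genotypes, had such windows too. The first Ly6c2 window held 0 CG pairs, a PU.1 core at 108 bases and a C/EBP match at 132 bases. The second Ly6c2 window, which overlaps the first, held 0 CG pairs, PU.1 cores at 142 and 8 bases and C/EBP matches at 166 and 27 bases. The farther match of each motif is the same stretch as in the first window. The Lyz2 window held 1 CG pair and a C/EBP match at 55 bases. Such matches are descriptions of sequence, and neither binding nor methylation was measured here.

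Depth on genes was 93850256 to 122658636 reads in GMP and 29533371 to 30437981 reads in LSK. Levels are CPM, reads of a gene scaled to a common library size, on 1 TMM scale over all 10 libraries. Dnmt3a was at 51.7, 65.8 and 20.5 CPM in the GMP KO libraries, against 143 and 115 CPM in the GMP CTRL libraries, and at 55.5, 51.2 and 57.1 CPM in the LSK KO libraries, against 151 and 145 CPM in the LSK CTRL libraries. Every KO library was below every CTRL library of its population, although by edgeR's quasi-likelihood test the difference did not pass in GMP (log2 fold change −1.50, adjusted p = 0.30) and did in LSK (−1.43, adjusted p = 1.06e-04). The Dnmt3a call in LSK was lost in the joint fit of all libraries (log2 fold change −1.44, adjusted p = 1.0), and Dnmt3a in GMP passed without KO-352 (−1.15, adjusted p = 0.0493). The sums of lineage markers followed the sort. The summed level of 8 GMP markers was 14870 to 24900 CPM in the GMP libraries and 3300 to 4024 CPM in the LSK libraries. Its largest part in GMP was Mpo, at means of 10030 CPM in KO and 13140 CPM in CTRL. Kit and Cd34, also in that list, went the other way. Mean Kit levels were 269 and 232 CPM in GMP KO and GMP CTRL, against 726 and 786 CPM in LSK KO and LSK CTRL. Those of Cd34 were 401, 461, 750 and 831 CPM in the same order. Both encode proteins used in the sort, as do Fcgr3 and Fcgr2b of the list. The summed level of 8 stem and progenitor markers of LSK was 1489 to 1937 CPM in the LSK libraries. Within GMP this sum also stood apart by genotype, at 413, 466 and 338 CPM in the GMP KO libraries against 261 and 266 CPM in the GMP CTRL libraries. Of these 8 genes 7 had a positive fold change in GMP (median 0.62) and none passed; the cytokine receptor gene Flt3 had levels of 101, 178.3 and 82.2 CPM in GMP KO against 15.5 and 23.5 CPM in GMP CTRL (log2 fold change 2.62 ± 0.38, SE; adjusted p = 0.19, and 0.029 without KO-352). The part of such cells in the levels of the 9 genes was not tested. The libraries differed in other ways. The description of GMP KO-352 refers to LSK data, and its title was followed. Reads outside genes made 15.5%, 16.1% and 10.3% of the listed reads in the GMP KO libraries, against 8.5% and 14.2% in the GMP CTRL libraries. Counts of Xist and Y-linked genes marked every GMP library, LSK KO-1327 and LSK CTRL-1326 as male and the other LSK libraries as female.

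None of the 9 genes passed the KO over CTRL test in GMP at an adjusted p of 0.05, where 0.0347% of 17290 genes passed in either direction. The test was edgeR's quasi-likelihood test with Benjamini-Hochberg adjustment over all genes tested, and limma-voom also called none. DESeq2 called 3, Fcgr1, Ccr2 and F13a1, all higher in KO, where it called 2.4% of all genes higher. At an unadjusted p under 0.05 the same 3 genes lay higher, where 7.19% of all genes did, and Cx3cr1 and Adgre1 lower, where 6.62% did. The other 4 (Cd14, Ly6c2, Csf1r and Lyz2) had unadjusted p-values of 0.30 to 0.90. The median log2 fold change of all 9 genes in GMP was −0.012, against 0.011 over all genes tested. In LSK none of the 9 passed either, where 0.0232% of 17238 genes did, with 3 below an unadjusted p of 0.05 (Ccr2, Lyz2 and Ly6c2), all lower in KO, where 1.72% of all genes lay, and 0 higher, where 1.1% lay. DESeq2 called Ccr2 alone in LSK, at an adjusted p of 0.050, where it called 0.058% of all genes lower, and limma-voom called none. In LSK 8 of the 9 fold changes were negative, as were 49.2% of those of all genes, and their median was −0.31, against 0.003 over all genes tested. In bulk samples, fewer cells of a type and less RNA per cell cannot be told apart.

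**Figure D1:**
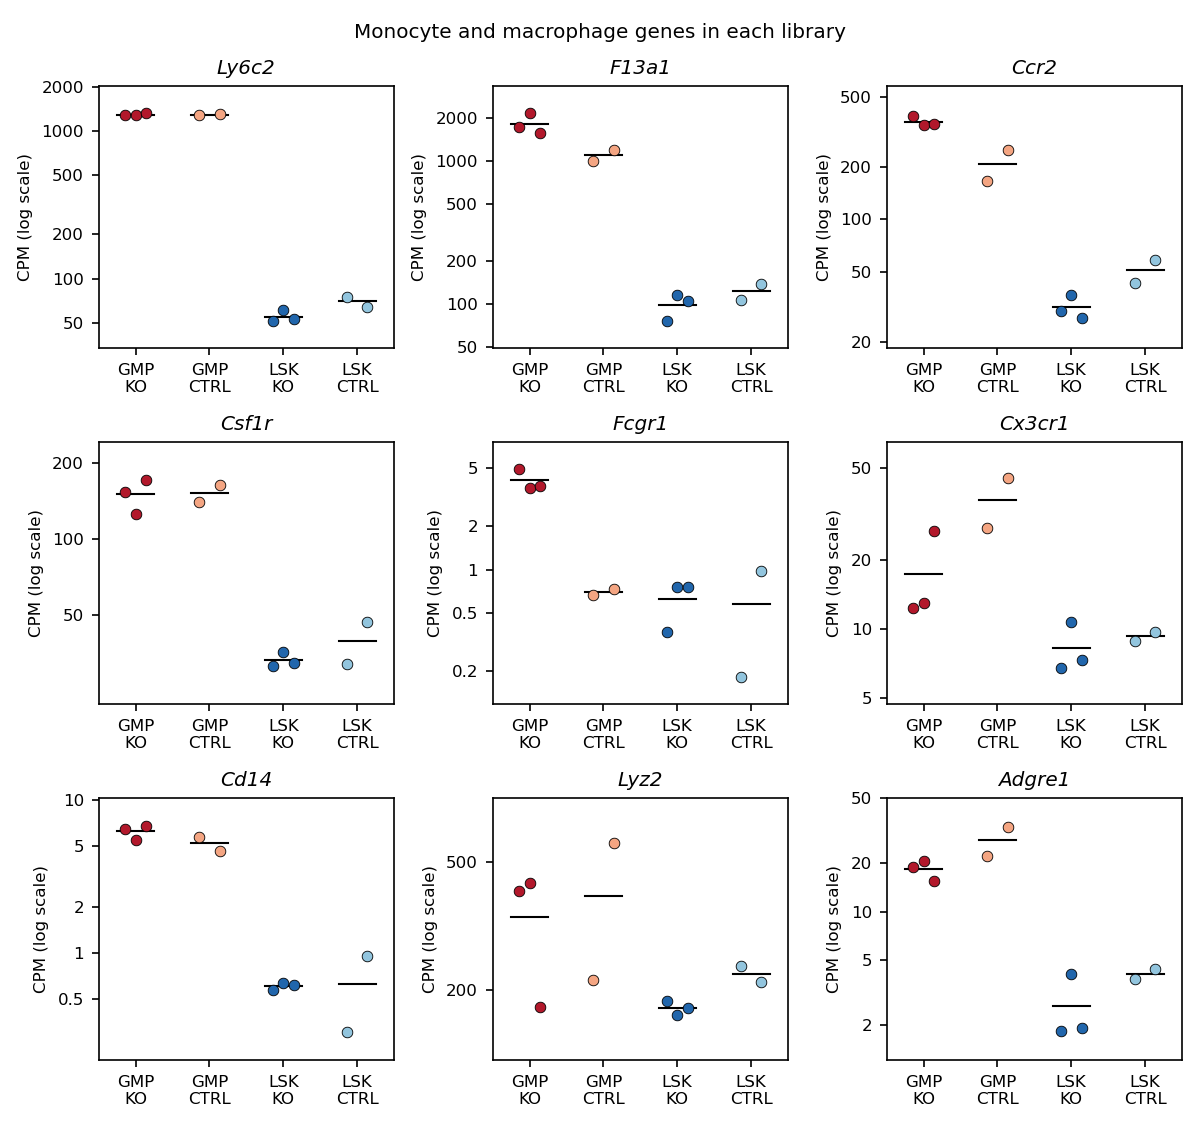
Level of each of the 9 genes in each library (CPM, log axis), with GMP KO, GMP CTRL, LSK KO and LSK CTRL from left to right. Points are libraries and bars are group means; Fcgr1 shows 3 GMP KO libraries at 3.65 to 4.93 CPM above all other libraries, the highest of which is at 0.98 CPM.

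Among the receptors, Fcgr1 had the largest KO over CTRL fold change of the 9 genes in GMP. Fcgr1 encodes CD64, the high-affinity receptor for IgG, and lies on chromosome 3 (96282909 to 96293969, GRCm38). It was at 4.93, 3.65 and 3.79 CPM in the GMP KO libraries, against 0.67 and 0.74 CPM in the GMP CTRL libraries. These levels rest on 445, 405 and 325 reads in the KO libraries and 55 and 61 reads in the CTRL libraries, and the groups were far apart. The log2 fold change was 2.54 ± 0.30 (SE; n = 3 KO and 2 CTRL), with an adjusted p of 0.099 in edgeR and 1.34e-13 in DESeq2, and it ranked 11th of all genes by p. Without KO-352 the fold change was 2.59 and passed (adjusted p = 0.043), and without each other library it was 2.39 to 2.62 with an adjusted p of 0.17 to 0.67. Adjusted for each library's share of reads outside genes, it was 2.48 (adjusted p = 0.014). In LSK the gene was near its detection limit, at 0.37, 0.76 and 0.76 CPM in the LSK KO libraries and 0.18 and 0.98 CPM in the LSK CTRL libraries, from 13, 25 and 27 reads in KO and 6 and 34 reads in CTRL. The LSK groups overlapped, the CTRL libraries being the lowest and the highest, and the log2 fold change was 0.10 ± 0.66 (SE).

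Fcgr1 belongs to a family of 4 Fc gamma receptor genes, and the others sit on chromosome 1. Fcgr2b, the inhibitory receptor, and Fcgr3, a low-affinity activating receptor, are the receptors on which the FcgR+ gate of GMP rests. Per kilobase of exon, Fcgr3 was at a mean of 200 CPM in GMP KO and 237 CPM in GMP CTRL, while Fcgr1 was at 1.59 CPM in GMP KO and 0.27 CPM in GMP CTRL. Fcgr1 thus made 0.861%, 0.612% and 0.605% of the family's level in the GMP KO libraries and 0.0994% and 0.109% in the GMP CTRL libraries. In LSK its share was 1.08%, 1.73% and 1.96% in the KO libraries and 0.407% and 2.35% in the CTRL libraries, with overlap. Fcgr4, an activating receptor of monocytes and neutrophils, was at 8.67, 10.1 and 6.70 CPM in the GMP KO libraries, against 4.30 and 5.59 CPM in the GMP CTRL libraries, without overlap (log2 fold change 0.77 ± 0.25, adjusted p = 0.32). Fcgr2b had a log2 fold change of 0.18 ± 0.14 and Fcgr3 of −0.26 ± 0.11 (SE), neither passing the test. Fcer1g, the signalling chain of the activating receptors of the family, was at 0.044 ± 0.20 in GMP and −0.42 ± 0.13 in LSK on the same scale. No stretch of 50 bases of Fcgr1 or Fcgr4 occurs in another gene's transcripts, whereas 9.58% of those of Fcgr3 do, all of them in Fcgr2b.

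**Figure D2:**
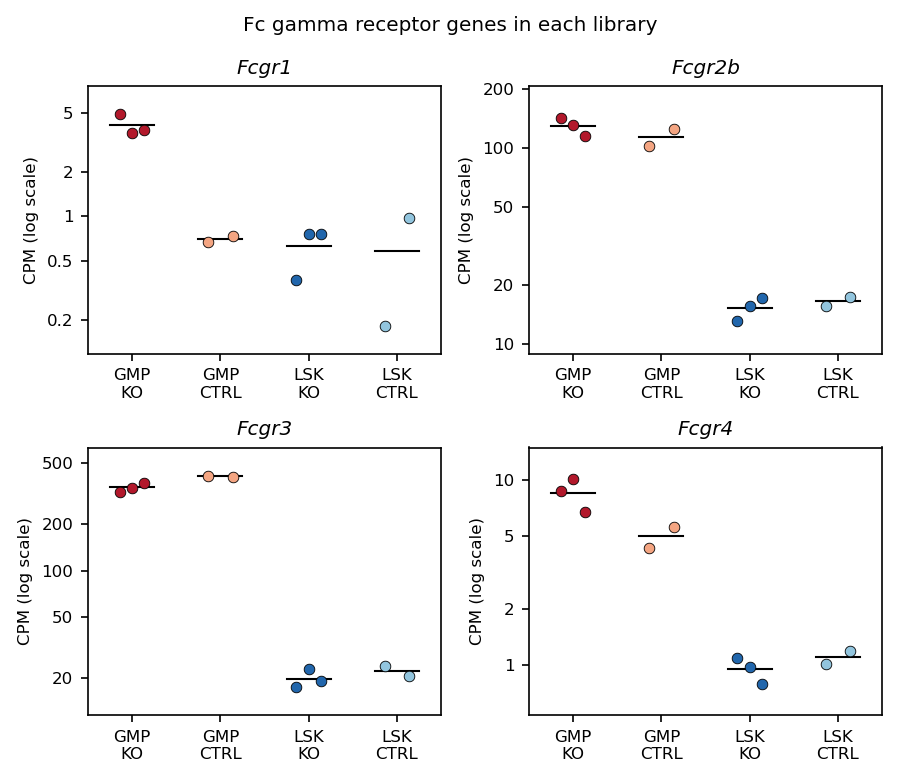
Levels of the 4 Fc gamma receptor genes in each library (CPM, log axes that differ between panels). Points are libraries and bars are group means; Fcgr1 and Fcgr4 lie higher in all 3 GMP KO libraries than in both GMP CTRL libraries, and Fcgr3 lies lower, at 326 to 374 CPM in GMP KO against 409 and 415 CPM in GMP CTRL.

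The 2 chemokine receptors differed in direction in GMP. Ccr2, through which classical monocytes follow CCL2 out of the marrow, was at 387, 343 and 351 CPM in the GMP KO libraries, against 166 and 247 CPM in the GMP CTRL libraries. All KO libraries lay above both CTRL libraries, with a log2 fold change of 0.80 ± 0.17 (SE), an adjusted p of 0.26 in edgeR and 0.0023 in DESeq2. Cx3cr1, the fractalkine receptor of patrolling monocytes, was at 12.3, 12.9 and 26.7 CPM in the same KO libraries, against 27.6 and 45.5 CPM in the CTRL libraries. KO-352 lay just below CTRL-346, and on plain CPM, without the TMM factors, the groups overlapped. Its log2 fold change was −1.09 ± 0.37 (SE; adjusted p = 0.33), and −1.54 without KO-352, where it passed (adjusted p = 0.049).

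In LSK Ccr2 lay on the other side. It was at 30.2, 37.1 and 27.6 CPM in the LSK KO libraries, against 43.7 and 59.0 CPM in the LSK CTRL libraries, again with no overlap but with KO lower. The log2 fold change was −0.70 ± 0.16 (SE; adjusted p = 0.93), the smallest unadjusted p of the 9 genes in LSK (0.0017), and it was −0.72 with sex as a covariate. Cx3cr1 was at 6.74, 10.7 and 7.33 CPM in the LSK KO libraries and 8.83 and 9.74 CPM in the LSK CTRL libraries, with overlap (−0.16 ± 0.20).

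The ratio of Ccr2 to Cx3cr1 reads, computed after these levels had been seen and so given with no test, was 31.4, 26.5 and 13.2 in the GMP KO libraries, against 6.00 and 5.42 in the GMP CTRL libraries. In LSK it was 4.48, 3.46 and 3.76 in the KO libraries and 4.95 and 6.06 in the CTRL libraries. Both genes lie on chromosome 9.

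**Figure D3:**
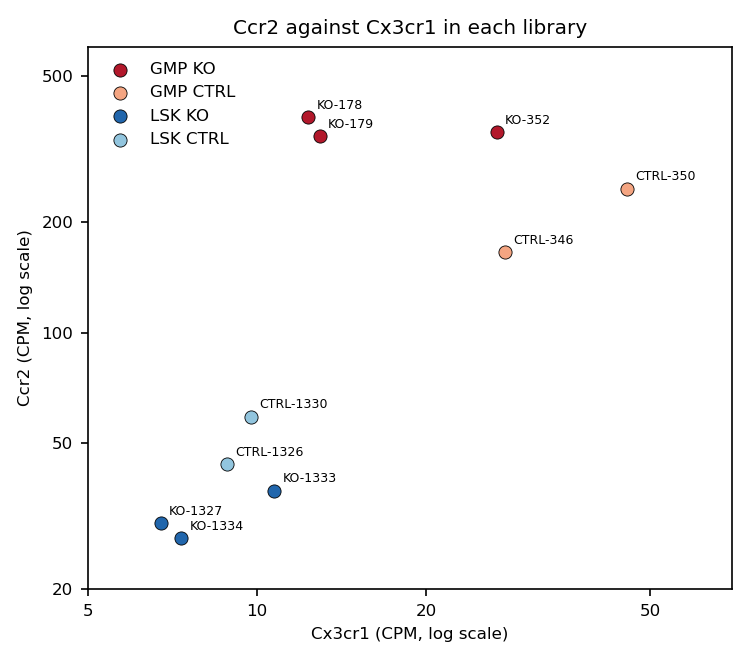
Ccr2 (vertical) against Cx3cr1 (horizontal) in each library, both in CPM on log axes, coloured by group. The GMP KO libraries lie above both GMP CTRL libraries (343 to 387 against 166 and 247 CPM of Ccr2) and to their left, KO-352 being nearest to CTRL-346.

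Csf1r, the receptor for CSF-1 and IL-34 that macrophages need to form and survive, did not separate the genotypes. It was at 154, 125 and 171 CPM in the GMP KO libraries, and 140 and 163 CPM in the GMP CTRL libraries. The groups overlapped fully, with a log2 fold change of −0.027 ± 0.15 (SE). The LSK levels were 31.4, 35.7 and 32.2 CPM in the KO libraries, and 32.1 and 47.0 CPM in the CTRL libraries (−0.25 ± 0.16), and only CTRL-1330 stood out. Csf1r shares 14.3% of its windows of 50 bases with the neighbouring gene Hmgxb3, so reads within those windows cannot be assigned to either by sequence alone.

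Cd14, the co-receptor that hands lipopolysaccharide to TLR4, was low in every library. It was at 6.44, 5.46 and 6.77 CPM in the GMP KO libraries, and 5.75 and 4.63 CPM in the GMP CTRL libraries, with overlap at KO-179 (0.25 ± 0.22, SE); on plain CPM the KO libraries all lay higher. The LSK levels were 0.57 to 0.64 CPM in KO and 0.30 and 0.95 CPM in CTRL, from 20 to 22 and 10 and 33 reads. Adgre1 encodes F4/80, an adhesion G protein-coupled receptor used as a macrophage marker. It was at 19.0, 20.5 and 15.5 CPM in the GMP KO libraries, against 22.0 and 33.4 CPM in the GMP CTRL libraries, without overlap on the TMM scale but with overlap on plain CPM. Its log2 fold change was −0.60 ± 0.21 (SE; adjusted p = 0.33), and it passed at −0.80 once adjusted for the libraries' share of reads outside genes (adjusted p = 0.034). In LSK it was at 1.83, 4.12 and 1.92 CPM in KO, and 3.84 and 4.42 CPM in CTRL, KO-1333 lying between the CTRL libraries (−0.66 ± 0.35).

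Ly6c2, which encodes a Ly6C antigen that defines classical monocytes, was the steadiest of the 9 in GMP. It was at 1279, 1280 and 1322 CPM in the GMP KO libraries, and 1287 and 1301 CPM in the GMP CTRL libraries. The log2 fold change was −0.012 ± 0.096 (SE), so the groups differed by less than the spread between libraries. In LSK it was at 51.7, 61.0 and 53.0 CPM in the LSK KO libraries, against 75.5 and 64.6 CPM in the LSK CTRL libraries. Here every KO library was below both CTRL libraries, with a log2 fold change of −0.33 ± 0.096 (SE; adjusted p = 1.0). Of the 2733 windows of 50 bases of Ly6c2, 395 (14.5%) occur in another gene, 379 of them in its near-copy Ly6c1. Ly6c1 was at a mean of 3.87 CPM in GMP KO and 4.27 CPM in GMP CTRL. Reads within the windows that Ly6c2 and Ly6c1 share cannot be assigned to either by sequence alone.

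The 2 secreted or cytoplasmic effectors behaved differently. F13a1 encodes the A subunit of factor XIII, a transglutaminase that cross-links fibrin. It was at 1751, 2195 and 1572 CPM in the GMP KO libraries, against 1010 and 1205 CPM in the GMP CTRL libraries, with no overlap. The log2 fold change was 0.72 ± 0.17 (SE), with an adjusted p of 0.26 in edgeR and 0.0054 in DESeq2, and adjusted for the libraries' share of reads outside genes it was 0.58 (adjusted p = 0.059). In LSK it was at 75.4, 116 and 104 CPM in KO and 106 and 139 CPM in CTRL, with overlap at KO-1333 (−0.31 ± 0.17).

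Lyz2 encodes lysozyme M, which cuts bacterial cell walls and which neutrophils make as well. It was at 406, 429 and 177.6 CPM in the GMP KO libraries, and 214 and 569 CPM in the GMP CTRL libraries. KO-352 and CTRL-346 were low and CTRL-350 high, so the groups overlapped in part and the log2 fold change was −0.22 ± 0.48 (SE). The share of reads outside genes, given above, was lowest in those same 2 low libraries, and with it as a covariate the fold change was −0.77 and passed (adjusted p = 0.012). The summed level of 12 mature neutrophil genes was 2721, 5164 and 721 CPM in the GMP KO libraries and 1089 and 2672 CPM in the GMP CTRL libraries, also lowest in KO-352 and CTRL-346, and its part in the Lyz2 level was not tested. In LSK Lyz2 was at 185, 168 and 176 CPM in the KO libraries, against 238 and 212 CPM in the CTRL libraries, without overlap (−0.34 ± 0.082, SE; adjusted p = 0.93). Lyz2 shares 15.4% of its windows with Lyz1, a near-copy that had 71 reads in GMP KO and 64 in GMP CTRL in all.

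Counted over libraries, 3 of the 9 genes (F13a1, Ccr2 and Fcgr1) lay higher in every GMP KO library than in both GMP CTRL libraries, as did 17.7% of all genes tested. Another 2 (Cx3cr1 and Adgre1) lay lower, as did 14.6%. On plain CPM, a scaling added after the levels had been seen, 4 genes lay higher, Cd14 being the fourth, as did 3708 of all 17130 genes. On that scaling 0 of the 9 lay lower, as did 2103 of the 17130. In LSK 3 genes (Ly6c2, Ccr2 and Lyz2) lay lower in every KO library, as did 7.67% of all genes, and 0 lay higher, as did 6.34%. The counts of the 9 were the same on plain CPM, where 1041 of all 16145 genes lay lower and 1441 higher. The summed level of the 9 genes was 3647 to 4415 CPM in the GMP KO libraries and 2874 and 3570 CPM in the GMP CTRL libraries, and 383 to 434 CPM in the LSK KO libraries and 508 and 537 CPM in the LSK CTRL libraries. F13a1 and Ly6c2 make up most of the GMP sum.

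**Figure D4:**
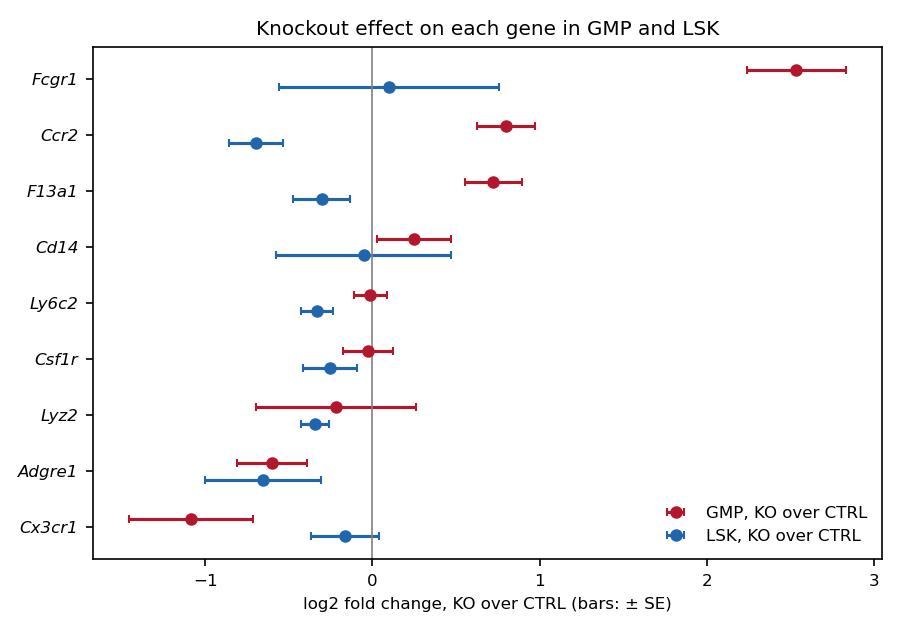
Fitted log2 fold change of each gene, KO over CTRL, in GMP (red) and in LSK (blue), ordered by the GMP value. Bars are ± 1 SE; Fcgr1 lies at 2.54 in GMP, Ccr2 at 0.80 in GMP and −0.70 in LSK, and 8 of 9 LSK values are below 0.

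The difference between the KO effects, GMP minus LSK, was tested in a fit of all 10 libraries. None of the 9 genes passed, where 0.0265% of 18836 genes did, and 4 had an unadjusted p under 0.05 (Ccr2, F13a1, Fcgr1 and Ly6c2), all with a positive difference, where 6.31% of all genes lay. For Ccr2 the difference was 1.51 ± 0.27 on the log2 scale (SE), with an adjusted p of 0.15 in edgeR and 2.71e-05 in DESeq2, and it ranked 22nd of all genes. Without GMP KO-352 it was 1.52 and passed (adjusted p = 0.032). For F13a1 it was 1.04 ± 0.28 (adjusted p = 0.34 in edgeR and 0.032 in DESeq2) and for Fcgr1 2.44 ± 0.785 (adjusted p = 0.39). The difference for Cx3cr1 was −0.91 ± 0.50 and for Ly6c2 0.34 ± 0.14.

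Between the populations, the genes were mostly higher in GMP. In CTRL 7 of the 9 passed as higher in GMP than in LSK, where 27.3% of all genes did, and in KO all 9 passed, where 30.1% did. These contrasts also hold the count table, its annotation and the read depth, which cannot be told apart from the population. The log2 fold change, GMP over LSK, was 4.55 ± 0.10 in KO and 4.21 ± 0.12 in CTRL for Ly6c2, and 4.22 ± 0.20 in KO and 3.18 ± 0.24 in CTRL for F13a1 (SE). For Ccr2 it was 3.51 ± 0.18 in KO and 2.01 ± 0.21 in CTRL, and for Fcgr1 2.71 ± 0.50 in KO (adjusted p = 8.77e-04) and 0.27 ± 0.61 in CTRL (adjusted p = 0.73). Whether the KO and CTRL values differ is the test of the difference given above. For Cx3cr1 the order was reversed, 1.07 ± 0.32 in KO (adjusted p = 0.014) and 1.98 ± 0.39 in CTRL. Lyz2 showed the smallest contrast in KO, 0.94 ± 0.36 (adjusted p = 0.041), and 0.80 ± 0.44 in CTRL (adjusted p = 0.14).

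For 3 genes the calls between populations changed with single libraries. In KO, Lyz2 no longer passed without any 1 of GMP KO-178, GMP KO-179, LSK KO-1327, LSK KO-1333 or LSK KO-1334 (0.71 to 0.97, adjusted p = 0.085 to 0.13), and Cx3cr1 no longer passed without LSK KO-1327 (0.94, adjusted p = 0.056) or LSK KO-1334 (0.99, adjusted p = 0.052). In CTRL, Lyz2 passed without GMP CTRL-346 (1.32, adjusted p = 0.018) and was at −0.034 without GMP CTRL-350, and Fcgr1 passed without LSK CTRL-1330 (1.94, adjusted p = 0.032) and was at −0.48 without LSK CTRL-1326. The call of Fcgr1 in KO and that of Cx3cr1 in CTRL held without any 1 library.

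Per kilobase of exon the order of the genes could be compared. In GMP KO the mean levels were 472 CPM per kilobase for Ly6c2, 273 for F13a1, 256 for Lyz2, 53.4 for Ccr2, 25.99 for Csf1r, 5.66 for Adgre1, 3.84 for Cx3cr1, 3.59 for Cd14 and 1.59 for Fcgr1. In GMP CTRL Lyz2, at 298, lay above F13a1, at 164, but in both genotypes the libraries of the 2 genes overlapped. Ccr2 and Csf1r, neighbours in the order, did not overlap in GMP KO (50.8 to 57.3 and 21.7 to 29.7 CPM per kilobase). In GMP CTRL their ranges did, but Ccr2 lay above Csf1r within each library. The levels were 24.5 against 24.3 in CTRL-346 and 36.5 against 28.3 in CTRL-350. Fcgr1 was last in all 4 groups, at 1.59 in GMP KO, 0.27 in GMP CTRL, 0.24 in LSK KO and 0.23 in LSK CTRL. In LSK Lyz2 led in both genotypes, at 134 in KO and 171 in CTRL, followed by Ly6c2 at 20.2 in KO and 25.6 in CTRL and F13a1 at 14.6 in KO and 18.1 in CTRL.

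For each gene the genes with the most similar pattern over the 10 libraries were found by the root mean square difference of log2(CPM + 0.1), centred on each gene's mean, among 12309 genes. All 10 libraries enter, so the contrast between populations carries most of the likeness. Ly6c2 was nearest to Hsd11b1 (0.132), Asnsd1 (0.142) and Clec5a (0.143), and Csf1r to Card9 (0.143), Naip2 (0.154) and Cebpa (0.162). Ccr2 was nearest to Snora68 (0.255), Nostrin (0.275) and Fcgr4 (0.286), and F13a1 to Cfap57 (0.228), Vcam1 (0.245) and Serpine2 (0.250). Vcam1, an adhesion molecule, was at 203, 204 and 127 CPM in the GMP KO libraries and 122 and 126 CPM in the GMP CTRL libraries. Cx3cr1 was nearest to Cacna1f (0.270), Cracr2b (0.272) and Cfp (0.278), which encodes properdin, and Cfp was at 32.8, 23.6 and 45.3 CPM in GMP KO and 60.4 and 66.3 CPM in GMP CTRL. Lyz2 was nearest to Btg1 (0.199), Fam129a (0.207) and Snord49a (0.240), all of them low in KO-352 and CTRL-346. Adgre1 was nearest to Sema4a (0.309) and Papss2 (0.314), and Cd14 to Mir5136 (0.265), Hnrnpu (0.274) and Rab7b (0.309). Fcgr1 had no close neighbour: its nearest, Clu, stood at 0.597, followed by Mst1r (0.618) and Slc7a2 (0.655). The LSK levels of Fcgr1, which enter these distances, rest on 6 to 34 reads per library. The part of counting error in the distances was not tested. Clu, which encodes the chaperone clusterin, was at 19.2, 18.1 and 15.2 CPM in the GMP KO libraries, 4.90 and 2.39 CPM in the GMP CTRL libraries and 3.71 to 5.21 CPM in LSK.

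Lists of related genes were described by their counts, and no gene of the lists in this paragraph and the next passed the KO over CTRL test in either population. Over all genes tested, 51.2% of fold changes were positive in GMP and 50.8% in LSK, and the shares with an unadjusted p under 0.05 are those given above, 7.19% higher in GMP and 1.72% lower in LSK. Of 15 classical monocyte genes tested in GMP, 13 had a positive fold change, with a median of 0.33, and 6 had an unadjusted p under 0.05, all higher in KO; in LSK 14 of 14 were negative, with a median of −0.33, and 6 had an unadjusted p under 0.05, all lower. The 3 genes Ly6c2, Ccr2 and F13a1 are among them, and without them the medians were 0.31 in GMP and −0.33 in LSK. Chil3, a chitinase-like protein of monocytes and neutrophils, was at 459, 1015 and 34.7 CPM in the GMP KO libraries and 20.7 and 190 CPM in the GMP CTRL libraries, and at 12.1, 13.6 and 11.9 CPM in LSK KO against 20.6 and 16.8 CPM in LSK CTRL (−0.56 ± 0.13). Of 10 patrolling monocyte genes in GMP, 6 were positive (median 0.081), with Ear2, a ribonuclease, at −1.76 ± 0.56; in LSK 1 of 12 was positive (median −0.44), with Treml4 at −0.95 ± 0.39. Of 18 macrophage genes 16 were positive in GMP (median 0.55) and 6 in LSK (median −0.17). Axl, a receptor for apoptotic cells, was at 3.15, 3.27 and 2.12 CPM in the GMP KO libraries and 0.96 and 1.42 CPM in the GMP CTRL libraries (1.25 ± 0.35, adjusted p = 0.29). Marco, a scavenger receptor, had 83 reads in GMP KO and 0 in GMP CTRL, which with a floor of 3 counts over the group is at least 15.9-fold higher in GMP KO; nearly all of these reads were in KO-178 and KO-179. The median of the macrophage list in GMP is the same with Marco at this bound.

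The other lists varied in direction. Of 19 genes of the CD14 and Toll-like receptor pathway, 13 were positive in GMP (median 0.28) and 4 in LSK (median −0.05). Tlr2, the receptor for bacterial lipopeptides, was at 47.8, 43.1 and 41.3 CPM in the GMP KO libraries, against 29.0 and 27.1 CPM in the GMP CTRL libraries (0.64 ± 0.12, adjusted p = 0.25), and Ly86, the partner of CD180, was at −0.69 ± 0.25 in LSK. Of 17 C-type lectins and myeloid surface receptors 13 were positive in GMP (median 0.38), led by p by Cd33 (1.61 ± 0.48), and 1 in LSK (median −0.28), led by Itgax (−0.75 ± 0.23), which encodes CD11c. Of 6 monocyte chemokine ligands 5 were positive in GMP (median 0.71) and 0 in LSK (median −0.47). Ccl9 was at 428, 545 and 415 CPM in the GMP KO libraries, against 276 and 257 CPM in the GMP CTRL libraries (0.79 ± 0.15, adjusted p = 0.26), and Ccl6 was at −0.60 ± 0.20 in LSK. Of the chemokine receptors 5 of 8 were positive in GMP and 2 of 10 in LSK, where Cxcr2 was at −0.56 ± 0.17. Of the CSF receptors and ligands 2 of 6 were positive in GMP, with Csf2rb, the shared chain of the GM-CSF receptor, at 0.39 ± 0.14, and 4 of 6 in LSK. Coagulation and transglutaminase genes were positive for 6 of 7 in GMP, with F5 at 0.94 ± 0.21, and 3 of 6 in LSK. Lysozymes and lysosomal enzymes were positive for 3 of 12 in GMP, with Ctsl at 0.69 ± 0.16, and 3 of 11 in LSK, with Psap at −0.26 ± 0.089. Of 13 transcription factors of the monocyte lineage 3 were positive in GMP (median −0.17) and 2 in LSK (median −0.18). Spi1, which encodes PU.1, was at 108, 98.2 and 126 CPM in the GMP KO libraries, against 159 and 133 CPM in the GMP CTRL libraries (−0.41 ± 0.15, adjusted p = 0.34), and Klf4, a factor of classical and patrolling monocytes, was at −0.84 ± 0.19 in LSK (adjusted p = 0.93).

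**Figure D5:**
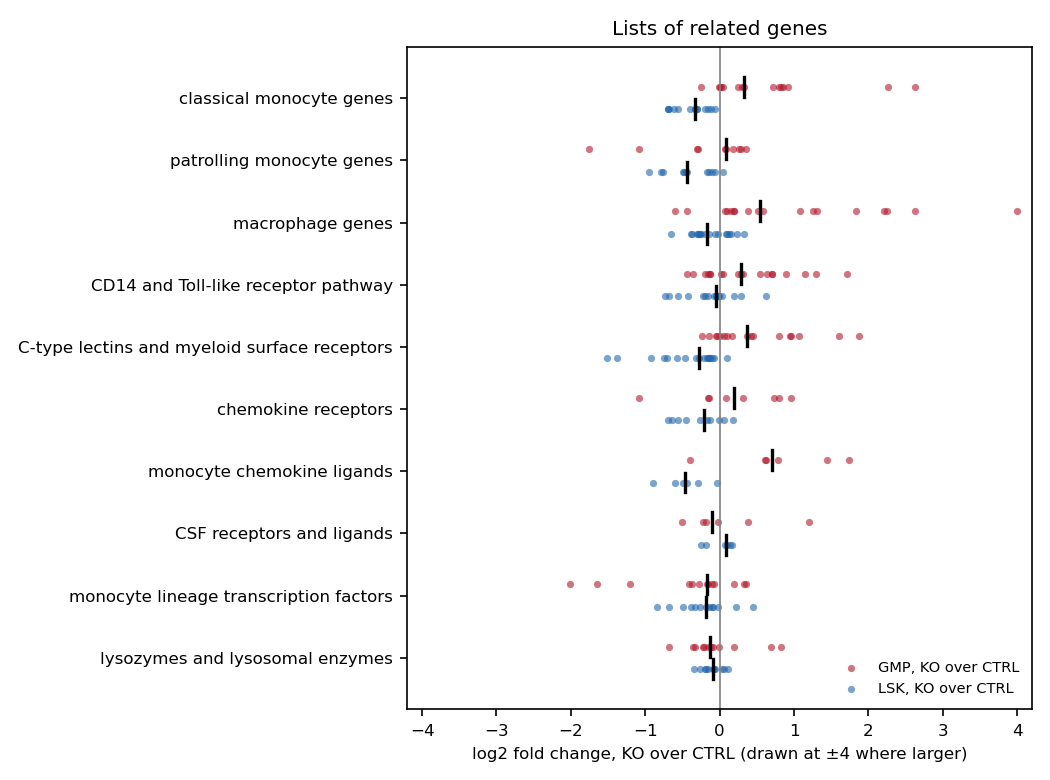
Fitted log2 fold change of each tested gene of 10 lists, KO over CTRL, in GMP (red) and in LSK (blue); black bars are medians, and 1 value beyond 4 is drawn at 4. The classical monocyte, macrophage and chemokine ligand lists have medians of 0.33, 0.55 and 0.71 in GMP and −0.33, −0.17 and −0.47 in LSK, and none of their genes passed the test.

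Markers of other cells were described in the same way, and of these 1 gene passed. In GMP 12 of 12 mature neutrophil genes had a positive fold change (median 1.03), with summed levels as given for Lyz2, and 5 of 7 granulocyte progenitor genes a negative one, their sums being 18160, 15880 and 21770 CPM in KO and 25790 and 19820 CPM in CTRL. For both lists the sums of the genotypes overlapped. Mast cell, basophil and eosinophil genes were negative for 10 of 10, with sums of 1068, 1377 and 1074 CPM in GMP KO against 1735 and 4719 CPM in GMP CTRL. Hdc, the histamine-forming enzyme, was the only gene of all lists that passed in GMP, where it fell to 225, 230 and 226 CPM in KO, against 472 and 462 CPM in CTRL (−1.05 ± 0.097, adjusted p = 0.041). It no longer passed without any 1 of GMP KO-178, GMP KO-179, GMP CTRL-346 or GMP CTRL-350 (adjusted p = 0.17 to 0.62) or in limma-voom (0.067). In LSK 11 of 11 dendritic cell genes were negative, with sums of 832, 706 and 617 CPM in KO against 876 and 931 CPM in CTRL. The mast cell, basophil and eosinophil genes were negative for 10 of 10 in LSK as well (median −0.53). Mature neutrophil genes were negative for 9 of 12 in LSK (median −0.20), and granulocyte progenitor genes for 4 of 7 (median −0.032). Of 8 T and NK cell genes tested in GMP 6 were positive (median 2.38), and 3 had an unadjusted p under 0.05 as higher and 1 as lower. Cd4 was at 3.03, 4.37 and 1.89 CPM in GMP KO and 0.15 and 0.27 CPM in GMP CTRL (adjusted p = 0.17), and Klrb1c, an NK cell receptor, at 4.93, 5.87 and 0.53 CPM in GMP KO and 0.19 and 0.28 CPM in GMP CTRL (adjusted p = 0.28). Without KO-352 both passed (adjusted p = 0.029 for Cd4 and 0.025 for Klrb1c). The sums of that list ran the other way, at 287 to 364 CPM in GMP KO and 423 and 509 CPM in GMP CTRL. Nearly all of each sum was the single gene Nkg7, at 274.5 to 361.5 CPM in GMP KO and 421.3 and 508.0 CPM in GMP CTRL. Cd3e was at 0 in 4 of the 5 GMP libraries. In LSK 2 of 9 T and NK cell genes were positive (median −0.25). Of the B cell genes 1 of 7 was positive in GMP (median −0.99) and 8 of 8 in LSK (median 0.59), with sums of 38.2 to 49.3 CPM in GMP KO, 44.4 and 44.6 CPM in GMP CTRL, 61.0 to 106 CPM in LSK KO and 51.3 and 71.6 CPM in LSK CTRL; Pax5 was at 0 in GMP KO-179 and KO-352. Interferon response genes summed to 240 to 301 CPM in GMP KO and 306 and 327 CPM in GMP CTRL, and to 263 to 289 CPM in LSK KO and 278 and 357 CPM in LSK CTRL. Of 16 such genes tested, 10 were negative in GMP (median −0.14) and 15 in LSK (median −0.26). The part of these cell types and of interferon in the levels of the 9 genes was not tested.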

How the data were processed

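Gene counts were deposited as raw tables, whole reads for each Ensembl gene. Per the submitters' processing notes, which assign no roles, the authors used STAR, HTSeq 0.5.3p3, DESeq 1.18.0, DESeq2 1.4.5 and the build mm10 or GRCm38. Neither the annotation release nor whether counting used strand is given in the sources used here. There are 38924 gene IDs for GMP and 45513 for LSK. Lines of totals that name no gene entered neither library sizes nor tests, and the deposited normalized tables were not used. Symbols, exon lengths and coordinates are from GENCODE vM21 (GRCm38), and the upstream sequences from RefSeq (GRCm38.p6), whose table was used for 6 of the 9 genes.

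Counts were tested with edgeR 4.0.16 in R 4.3.3 (filterByExpr with a minimum count of 10, TMM, glmQLFit and glmQLFTest, two-sided, Benjamini-Hochberg adjustment over all genes tested, threshold 0.05), fitting GMP and LSK apart. The contrasts between populations and the difference of KO effects came from a fit of all 10 libraries over the shared gene IDs. SE was taken as the size of the log2 fold change over the root of F. All 9 genes passed the filter on low counts in every fit. DESeq2 1.42.0, limma-voom (limma 3.58.1) and the other settings of the closing section were alternatives. Depth was 29533371 to 122658636 reads on genes per library. Without molecular identifiers, reads are not independent molecules, so the floor of 3 counts covers counting error only.

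Groups follow the titles and genotype labels. The labels used here do not state whether each library is a separate animal, so a p-value measures only how these libraries vary, which may be technical. The 9 genes and the lists of related genes were chosen with earlier results of these data known. Besides the 9 genes and Dnmt3a, the text names up to 2 genes per list and population with the smallest p, list genes that pass, near-copies of the 9 genes, the other Fc gamma receptors, and for each of the 9 genes 3 with the most similar pattern; Marco, Flt3, Cd4 and Klrb1c were named after their values had been seen. The values of a neighbour gene of Adgre1 in the comparison of patterns are not reported here.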

Additional observations from a re-analysis of the deposited data

How the results depend on the processing

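No paired analysis was possible because the title numbers are not shared between groups. For GMP KO over CTRL, 0 of the 9 genes passed with RLE normalization, limma-voom or the joint fit of all libraries. Only KO-352 against both CTRL libraries also gave 0, but this sets 1 library against 2, called 3 genes in all and says nothing about stability. With no filter on low counts 1 passed as higher, with DESeq2 3 higher, with reads outside genes as a covariate 1 higher and 2 lower, and with 1 library left out 0 to 1 higher and 0 to 1 lower. For LSK KO over CTRL 1 passed as lower with no filter and 1 with DESeq2. For the difference of KO effects 1 passed as higher with no filter, 2 with DESeq2 and 0 to 1 with 1 library left out. On plain CPM, an alternative added after the data had been seen, 0 genes in place of 2 lay lower in every GMP KO library. Of all 17130 genes, 2103 lay lower on plain CPM and 2498 on the TMM scale. The number of all genes called in GMP was 6 in the edgeR fit reported here, 703 with DESeq2, 205 with the covariate, 182 in the joint fit, 172 without KO-352, 50 with no filter, 0 with limma-voom, and 1 to 4 without any other library. In LSK it was 4, and 20 with DESeq2, 27 with no filter, 0 in the joint fit, 11 without LSK CTRL-1326, 7 without LSK KO-1333, and 3 to 5 without any other library. For the difference it was 5, and 221 with DESeq2, 38 with no filter, 513 without GMP KO-352, 15 without GMP KO-179, and 1 to 6 without any other library. The cause was not tested.

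Signs turned only for log2 fold changes that had not passed in the fit reported here. With 1 library left out, these lay in GMP between −0.13 and 0.085 for Csf1r and −0.75 and 0.61 for Lyz2, and in LSK between −0.66 and 1.79 for Fcgr1, −0.66 and 1.02 for Cd14, −0.52 and 0.074 for Csf1r, −0.20 and 0.001 for Fcgr2b and −0.46 and 0.095 for Ly6c1. For the difference of KO effects they lay between −0.39 and 0.96 for Lyz2, −0.18 and 0.55 for Adgre1, −0.061 and 0.49 for Csf1r and −0.73 and 0.91 for Cd14, and for GMP over LSK in CTRL between −0.034 and 1.32 for Lyz2 and −0.48 and 1.94 for Fcgr1. In GMP, Csf1r was at 0.012 and Ly6c2 at 0.003 with the covariate, and at 0.17 and 0.027 with only KO-352 against both CTRL libraries; in LSK, Cd14 was at 0.17 with limma-voom. With 2 CTRL libraries per population, leaving out 1 assumes that the lone library varies like the KO libraries, and KO-352 alone is likewise assumed to vary like the CTRL libraries. In LSK, Fcgr1, Cd14 and Adgre1 rest on 6 to 153 reads per library, which limits what could be detected there.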
